A study of Mus musculus with 9 samples.

Results

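The transcripts of 49 genes of the DNA replication machinery were followed in dendritic cell (DC) progenitors sorted from mouse bone marrow. The genes were listed by function: origin licensing, the replication fork, deoxynucleotide supply and the chromatin steps that go with them. Each was measured by a probe set that carries its symbol alone, and all 49 were found among the 19938 genes with such a probe set. The 9 microarrays fell into 3 populations of 3 arrays, which the series places along a developmental axis: CDPs labelled as lacking Zbtb46 (Zbtb46- CDPs), CDPs labelled as having it (Zbtb46+ CDPs), and pre-CD8 DCs. CDPs are common DC progenitors, Zbtb46 is a transcription factor of classical DCs, and pre-CD8 DCs are precursors of the CD8 DC lineage, now called cDC1. All mice were heterozygous for a Zbtb46-GFP reporter, no further allele or treatment is given, and the cells were sorted by FACS into a medium that contained Flt3L. The labels do not give age, sex or sort gates, nor whether the arrays of a population came from different mice, from pools or from separate sorts, and the p-values cover the spread among these arrays alone. Values are log2 of the deposited signal unless a difference is named, and they are compared between populations, never between genes.

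Before S phase the origin recognition complex, Cdc6 and Cdt1 load the Mcm2-7 helicase onto origins, a step called licensing. In S phase Cdc45, the GINS complex and Mcm10 activate that helicase, polymerase alpha-primase starts each strand, and polymerases delta and epsilon extend it with the sliding clamp Pcna. Many of these genes are targets of E2F factors and are transcribed around the start of S phase, while most origin recognition subunits are present throughout the cycle. DC progenitors divide as they give rise to DCs.

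E2F-type sites are a known feature of this gene class, so stretches with such letters are shown. They come from all 10 genes with a match in the 250 bases before the start, of the 40 that had a promoter window. The sequences are RefSeq promoter windows of GRCm38.p6, read 5′ to 3′ on the gene's strand and cut to end before the transcription start. Capitals mark TTTCCCGC, TTTCGCGC, TTTGCCGC or TTTGGCGC on either strand, and overlapping matches run together.
Orc1, chr4:108579402-108579453, plus strand: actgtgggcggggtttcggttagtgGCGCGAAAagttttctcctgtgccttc
Orc3, chr4:34614951-34615008, minus strand: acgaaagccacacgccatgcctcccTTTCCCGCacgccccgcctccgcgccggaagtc
Cdc6, chr11:98907988-98908045, plus strand: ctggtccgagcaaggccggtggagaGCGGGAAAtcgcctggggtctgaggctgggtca
Mcm5, chr8:75109331-75109392, plus strand: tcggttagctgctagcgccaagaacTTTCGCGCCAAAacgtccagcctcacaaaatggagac
Mcm6, chr1:128359720-128359840, minus strand: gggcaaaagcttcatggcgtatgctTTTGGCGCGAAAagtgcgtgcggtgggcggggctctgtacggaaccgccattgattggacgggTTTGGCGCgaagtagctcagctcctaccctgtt
Mcm7, chr5:138172016-138172073, minus strand: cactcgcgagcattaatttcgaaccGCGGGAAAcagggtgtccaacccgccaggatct
Gins3, chr8:95633493-95633550, plus strand: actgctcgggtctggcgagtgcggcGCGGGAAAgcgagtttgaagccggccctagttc
Pola1, chrX:93632261-93632318, minus strand: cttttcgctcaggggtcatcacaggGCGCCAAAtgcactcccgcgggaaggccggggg
Rfc3, chr5:151651209-151651243, minus strand: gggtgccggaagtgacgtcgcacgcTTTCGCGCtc
Dtl, chr1:191575545-191575577, minus strand: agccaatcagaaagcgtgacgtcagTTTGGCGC
In Mcm6 there were 3 matches, 2 of them overlapping, and in Mcm5 2 overlapping matches. Of the 49 genes, 40 had a promoter window, 48 windows in all. An E2F-type match in the 250 bases before the start was found in 10 of these windows (20.8%), against 1.86% of all 32851 windows and 1 of the 28 windows (3.57%) of a list of mitosis genes. With the 50 bases after the start included, 16 of the replication windows (33.3%) held a match, against 2.26% of all windows and 3.57% of the mitosis windows. The replication windows and the mitosis windows had a like base composition, with a median GC content of 61.2% and 60.6%, against 52.4% for all windows. The letters CCAAT, searched on both strands, were in 54.2% of the replication windows, 75% of the mitosis windows and 33.8% of all windows. Among the 40 genes, the 10 with a match before the start had a median log2 difference of -1.11 in pre-CD8 DCs minus Zbtb46- CDPs. The 30 without a match there had -0.71, and the ranges overlapped (-1.39 to -0.44, and -1.44 to 0.04). This split was not tested. It depends on the window, as 16 of the 40 genes held a match with the 50 bases after the start included, so some of the 30 have one there. A match describes these letters and is not a measured binding site.

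The labels were checked against marker genes before the comparisons. Of the 5 CDP markers, Csf1r and Cd34 lay between 10.19 and 11.72 on the 6 CDP arrays and fell in pre-CD8 DCs, while Kit and Flt3 were higher in pre-CD8 DCs than in Zbtb46+ CDPs, by 0.90 and 0.59. Of the 10 cDC1 markers, 8 passed as higher in Zbtb46+ than in Zbtb46- CDPs, against 3.85% of all genes. In pre-CD8 DCs 7 passed as higher than in Zbtb46+ CDPs, against 4.76%. Batf3 and Clec9a lay between 10.87 and 11.35 in pre-CD8 DCs. Clec9a overlapped between the CDP groups, at 8.46, 9.42 and 9.41 in Zbtb46- and 9.39, 9.37 and 9.48 in Zbtb46+ CDPs. Zbtb46 had 6.27, 6.92 and 6.41 in Zbtb46- CDPs and 7.50, 7.05 and 7.18 in Zbtb46+ CDPs, on either side of the table median. Cd8a itself lay at 6.67 to 6.83 in pre-CD8 DCs, below the table median of 6.96. The lists of erythroid, B cell, and T and NK cell markers averaged 5.91 to 6.46 on every array, also below it, but 1 marker of the first and 1 of the last passed as higher in Zbtb46+ than in Zbtb46- CDPs. These were Car1 (0.61), at 6.78 to 7.30 in Zbtb46+ CDPs and 6.31 to 6.65 in Zbtb46- CDPs, and Thy1 (0.90), at 7.83 to 8.15 in Zbtb46+ CDPs and 6.76 to 7.41 in Zbtb46- CDPs. The primary granule genes Mpo, Elane, Prtn3 and Ctsg moved with the comparisons: 3 of 4 fell between the CDP groups and 4 of 4 in pre-CD8 DCs. Their summed signal ran from 26635 to 26780 in Zbtb46- CDPs, from 7212 to 14198 in Zbtb46+ CDPs and from 436 to 464 in pre-CD8 DCs, and their part in the results was not tested. The 3 monocyte markers moved in different directions: Ccr2 rose by 0.69 and 0.65 at the first and second step, Fn1 had 1.45 and -2.79, and F13a1 had -1.87 and -2.90. The 4 plasmacytoid DC markers averaged 9.04 to 9.59 in Zbtb46- CDPs, 8.84 to 8.91 in Zbtb46+ CDPs and 8.66 to 8.85 in pre-CD8 DCs. The part of these markers in the results was not tested either. Replicate 1 of both CDP groups stood apart in Xist, a female-specific transcript. It lay at 5.59 in the Zbtb46- and 5.30 in the Zbtb46+ array, against 11.85 to 12.29 on the other 7. No pre-CD8 array was low in Xist, and the part of sex in the results was not tested. The 6 secondary granule genes, neutrophil products such as Ngp and Camp, were also highest on replicate 1 of each CDP group, and none passed the test in any comparison. Their mean was 9.42 in Zbtb46- replicate 1 and 11.28 in Zbtb46+ replicate 1, against 6.07 to 7.71 elsewhere. In Zbtb46+ replicate 1, Gmnn, Prim1, Rfc4, Rpa3 and Rrm1 lay more than 0.5 below both other arrays of the group and Cdt1 lay more than 0.5 above. Of all genes, 4.45% lay so far below and 7.73% so far above on that array. No replication gene stood so far out on any other array. The calls that change without these 2 arrays are named after the counts.

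Over the whole span, replication transcripts were lower in pre-CD8 DCs than in Zbtb46- CDPs. Of the 49 genes 41 fell and 1, Esco2, rose, where 9.23% of all genes fell and 6.43% rose (limma, adjusted p under 0.05 over all genes). Their median log2 difference was -0.76, against 0.01 over all genes. The 3 pre-CD8 arrays lay all below the 3 Zbtb46- arrays for 45 of the 49, against 19.2% of all genes, and all above for 1, against 14.4%. Largest were the falls of the histone chaperone subunit Chaf1b, 2.71-fold, and of Mcm2, 2.66-fold. In sorted bulk cells, fewer cells in S phase and less transcript per cell cannot be told apart.

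Each step of the span was then taken alone. Between the CDP groups 19 of 49 genes were lower in Zbtb46+ CDPs and 2, Rrm2 and Esco2, were higher, where 10.6% of all genes were lower and 3.85% higher. The median was -0.32, against 0.04 over all genes. For 30 genes all Zbtb46+ arrays lay below all Zbtb46- arrays, against 17.4% of all genes, and for 3 all lay above, against 11.8%. Between pre-CD8 DCs and Zbtb46+ CDPs 26 were lower and 0 higher, where 1.86% of all genes were lower and 4.76% higher, with a median of -0.48 against -0.03. For 33 genes all pre-CD8 arrays lay below all Zbtb46+ arrays, against 10.3% of all genes, and for 1, Orc4, all lay above, against 12.6%. At an unadjusted p under 0.05 in limma, 38 of the 49 differed at that step, against 3798 of all 19938 genes. These comparisons share the Zbtb46+ arrays, so a high or low value there moves the first and the second difference in opposite directions. Of the 49 genes 1 lay below the table median on any array, while the shares over all genes include dim genes. With the 30% dimmest genes dropped, 16.3%, 2.94% and 13.8% of all genes were lower at the first step, the second and over the span. Of the 49 genes 20, 27 and 40 were lower in that setting.

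**Figure D1:**
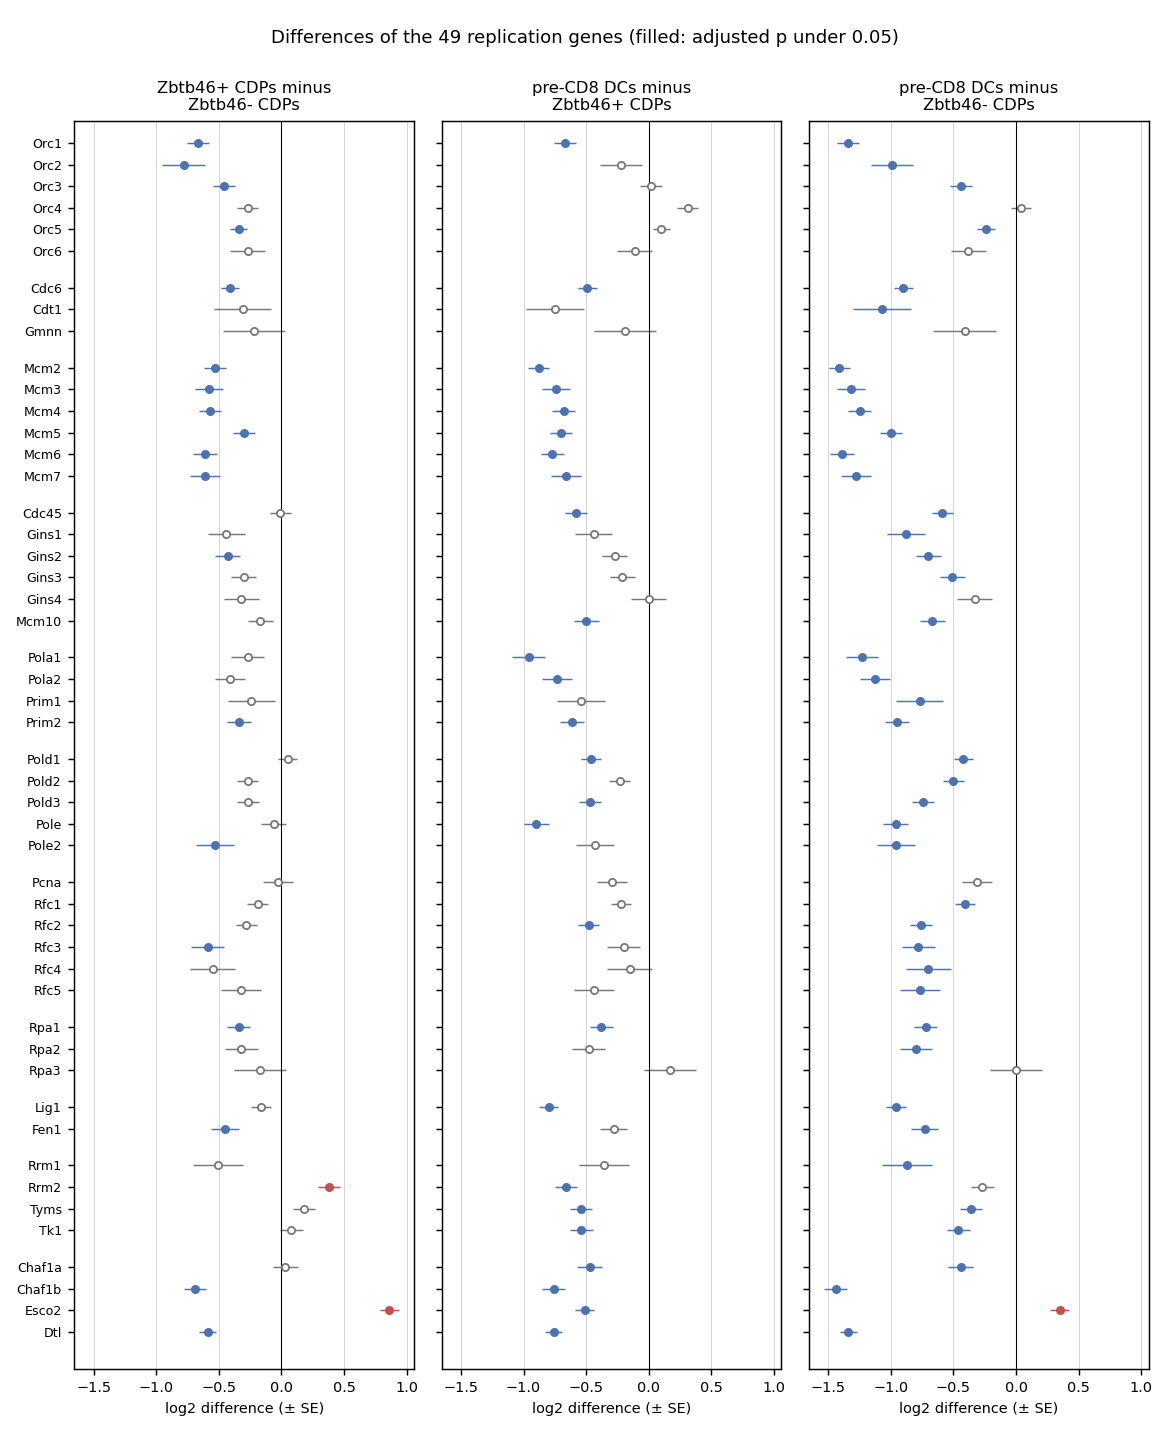
Log2 differences (x axis, with SE) of the 49 replication genes, in blocks by sub-complex from the origin recognition complex at the top to the chromatin genes at the bottom, for each pair of populations. Filled points passed an adjusted p under 0.05, blue lower and red higher; 41 of 49 points are blue in the right panel.

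The scaling moved the count of the first step. After another quantile normalization the first step had 10 genes lower and a median of -0.19, with Orc5, Cdc6, Mcm5, Gins2, Prim2, Pole2, Rfc3, Rpa1 and Fen1 no longer called, while the second had 32 lower and a median of -0.58. Without the 2 arrays low in Xist, 20 genes were lower and 2 higher at the first step, 35 lower at the second and 41 lower over the span, where 13.8%, 7.87% and 10.8% of all genes were lower. At the first step Gins2, Rpa1 and Fen1 then lost their call, and Cdt1, Pola2 (-0.52), Rfc5 (-0.37, adjusted p = 0.0331) and Rpa2 gained one. At the second step none was lost, and Cdt1, Gins1, Prim1 (-0.78, adjusted p = 0.00388), Pole2, Pcna, Rfc3 (-0.33, adjusted p = 0.0414), Rfc4 (-0.39, adjusted p = 0.0238), Rpa2 and Rrm1 were gained. Over the span Orc5 lost its call (adjusted p = 0.0536) and Pcna gained one.

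Leaving out 1 array at a time, 12 of the 21 calls of the first step held in all 9 runs, 21 of the 26 of the second and 35 of the 42 of the span. Those lost in at least 1 run were Orc2, Mcm5, Gins2, Prim2, Pole2, Rfc3, Rpa1, Fen1 and Rrm2 at the first step and Mcm10, Pold3, Rfc2, Rpa1 and Chaf1a at the second. Over the span they were Orc5, Prim1, Rfc4, Rrm1, Tyms, Chaf1a and Esco2.

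All 6 origin recognition genes had negative first differences (-0.78 to -0.27), and their calls differed. The subunits were not tested against each other. Orc1, the ATPase subunit that works with Cdc6, had signals of 7.97, 7.70 and 7.77 in Zbtb46- CDPs, 7.15, 7.12 and 7.16 in Zbtb46+ CDPs and 6.44, 6.58 and 6.40 in pre-CD8 DCs. No array of a population overlapped the next, and Orc1 was lower in Zbtb46+ than in Zbtb46- CDPs by 0.67 (adjusted p = 0.00128) and lower in pre-CD8 DCs than in Zbtb46+ CDPs by 0.67 (adjusted p = 0.00243). Its pre-CD8 values were the only ones of the 49 genes below the table median. The core subunit Orc2 stood at 9.75, 9.45 and 9.54 in Zbtb46- CDPs, 8.93, 8.53 and 8.95 in Zbtb46+ CDPs and 8.58, 8.27 and 8.90 in pre-CD8 DCs. Orc2 was lower between the CDP groups (-0.78, SE 0.17, adjusted p = 0.0168), and its pre-CD8 and Zbtb46+ arrays overlapped (-0.22, SE 0.17, adjusted p = 0.549). Orc3 and Orc5 likewise were lower in Zbtb46+ than in Zbtb46- CDPs, by 0.46 and 0.34, and had second differences of 0.02 and 0.10 without a call. Orc4, another core subunit, was at 8.27, 8.12 and 8.39 in Zbtb46- CDPs, 7.94, 8.07 and 7.94 in Zbtb46+ CDPs and 8.29, 8.32 and 8.28 in pre-CD8 DCs. All Zbtb46+ arrays of Orc4 lay below those of the other populations, which overlapped, and neither step passed (-0.27 and 0.31, adjusted p = 0.0576 and 0.0604). Orc6 passed the test in none of the comparisons, with differences of -0.27, -0.11 and -0.38 over the first step, the second and the span.

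The licensing factors were uneven. Cdc6, which loads the helicase with Cdt1, was measured at 8.90, 8.83 and 8.78 in Zbtb46- CDPs, 8.46, 8.41 and 8.41 in Zbtb46+ CDPs and 7.90, 8.05 and 7.85 in pre-CD8 DCs. The populations did not overlap, with falls of 0.41 (adjusted p = 0.00609) at the first step and 0.49 (adjusted p = 0.00489) at the second. Cdt1 had 9.72, 9.12 and 9.34 in Zbtb46- CDPs, 9.65, 8.76 and 8.84 in Zbtb46+ CDPs and 8.39, 8.27 and 8.33 in pre-CD8 DCs. It fell over the span (-1.07, SE 0.23, adjusted p = 0.0121) but passed neither step, where Zbtb46+ replicate 1 lay with the Zbtb46- arrays; without the 2 arrays low in Xist it passed both, at -0.43 and -0.47 (adjusted p = 0.0143 and 0.0088). Geminin (Gmnn), the inhibitor of Cdt1, showed 9.74, 9.55 and 9.85 in Zbtb46- CDPs, 8.86, 9.87 and 9.76 in Zbtb46+ CDPs and 9.11, 9.59 and 9.20 in pre-CD8 DCs. The populations overlapped, and its differences from step to step, -0.22 and -0.19, had an SE of 0.25 each.

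All 6 helicase genes Mcm2 to Mcm7 were lower at each step, save that Mcm5 lost its first call under 12 of the 19 alternatives run (quantile normalization and most runs without 1 array among them). Mcm2 had signals of 11.59, 11.37 and 11.35 in Zbtb46- CDPs, 11.02, 10.87 and 10.85 in Zbtb46+ CDPs and 10.05, 10.05 and 9.98 in pre-CD8 DCs. Mcm3 gave 11.43, 11.23 and 11.29 in Zbtb46- CDPs, 10.89, 10.66 and 10.66 in Zbtb46+ CDPs and 10.16, 9.83 and 9.99 in pre-CD8 DCs. For Mcm4 the values were 10.29, 10.20 and 10.31 in Zbtb46- CDPs, 9.69, 9.64 and 9.75 in Zbtb46+ CDPs and 9.20, 8.93 and 8.92 in pre-CD8 DCs. None of these populations overlapped for any of the 3 genes, and the pre-CD8 level of Mcm2 was 2.66-fold below the Zbtb46- level.

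Mcm5 was at 11.27, 11.19 and 11.20 in Zbtb46- CDPs, 11.05, 10.86 and 10.85 in Zbtb46+ CDPs and 10.23, 10.34 and 10.10 in pre-CD8 DCs. Mcm6 lay at 11.37, 11.34 and 11.25 in Zbtb46- CDPs, 10.60, 10.69 and 10.84 in Zbtb46+ CDPs and 10.02, 10.01 and 9.78 in pre-CD8 DCs. In Mcm7 the arrays read 11.21, 10.96 and 11.15 in Zbtb46- CDPs, 10.36, 10.52 and 10.60 in Zbtb46+ CDPs and 9.96, 9.60 and 9.92 in pre-CD8 DCs. These too were separate in all 3 populations. First differences of the 6 genes ran from -0.61 (Mcm6 and Mcm7) to -0.30 (Mcm5, adjusted p = 0.0498), and second differences from -0.88 (Mcm2, SE 0.085, adjusted p = 0.00045) to -0.66 (Mcm7, adjusted p = 0.011). The second difference minus the first ran from -0.40 to -0.05 and passed in none of the 6 (adjusted p from 0.153 to 0.898). After quantile normalization Mcm2 and Mcm5 passed on the negative side. Span differences ran from -1.41 (Mcm2) to -1.0 (Mcm5).

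**Figure D2:**
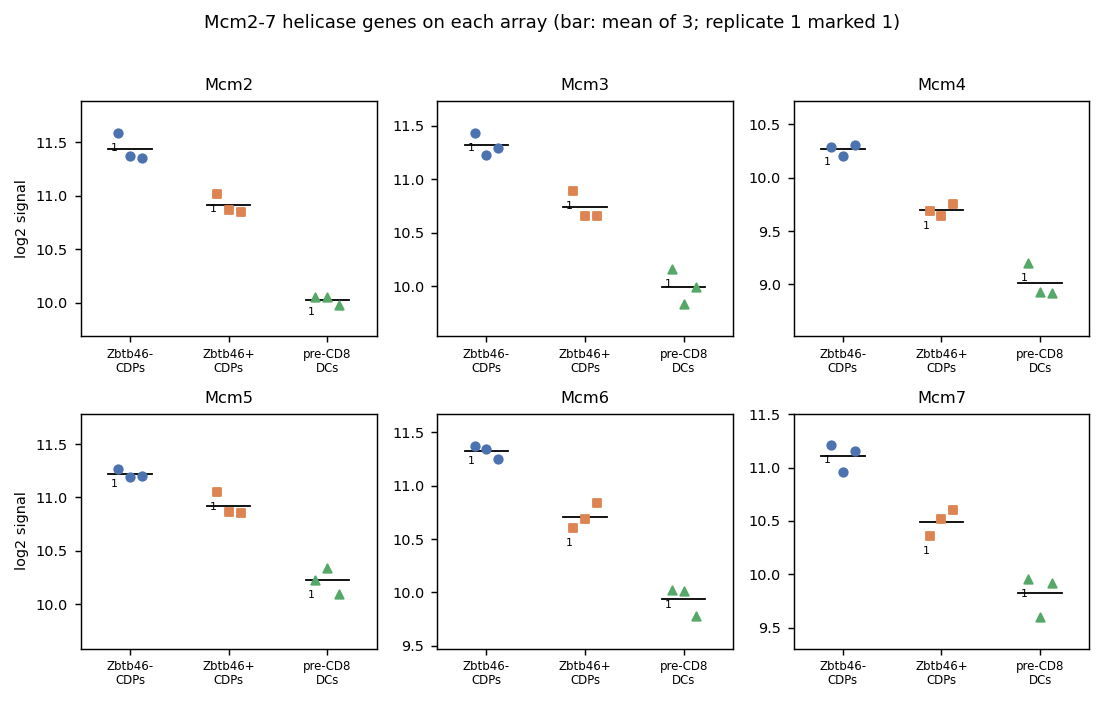
Log2 signal (y axis) of Mcm2 to Mcm7 on each of the 9 arrays by population, with a bar at the mean of 3 arrays; every panel spans the same log2 range. In each panel all pre-CD8 points lie below all Zbtb46+ points, and these below all Zbtb46- points.

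Among the genes that activate the helicase, Cdc45 had 10.56, 10.31 and 10.28 in Zbtb46- CDPs, 10.41, 10.33 and 10.37 in Zbtb46+ CDPs and 9.84, 9.78 and 9.75 in pre-CD8 DCs. The CDP groups overlapped, and pre-CD8 DCs lay below both, with a first difference of -0.01 (SE 0.085, adjusted p = 0.94) and a second of -0.58 (SE 0.085, adjusted p = 0.00419). Mcm10 likewise was lower at the second step (-0.50, adjusted p = 0.0197), with -0.17 at the first (adjusted p = 0.299). The GINS subunit gene Gins1 was at 9.94, 9.82 and 9.93 in Zbtb46- CDPs, 9.25, 9.56 and 9.56 in Zbtb46+ CDPs and 8.97, 9.33 and 8.75 in pre-CD8 DCs. The CDP groups did not overlap, and pre-CD8 and Zbtb46+ arrays did. It fell over the span (-0.88, SE 0.15, adjusted p = 0.00299) with a difference of -0.44 at each step, neither of which passed. These were -0.32 (adjusted p = 0.221) and -0.54 (adjusted p = 0.0459) without the 2 arrays low in Xist. Gins2 fell at the first step (-0.43, adjusted p = 0.024, and 0.0681 without the 2 arrays low in Xist) and Gins3 over the span (-0.51), and Gins4 had -0.32 and 0.00 at the steps without a call.

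Polymerase alpha-primase genes all fell over the span, by 0.77 to 1.23. Pola1, the catalytic subunit that lays the first DNA, had 10.07, 10.12 and 9.95 in Zbtb46- CDPs, 9.59, 9.84 and 9.89 in Zbtb46+ CDPs and 8.91, 8.53 and 9.0 in pre-CD8 DCs. The accessory subunit Pola2 read 10.74, 10.74 and 10.62 in Zbtb46- CDPs, 10.57, 10.18 and 10.14 in Zbtb46+ CDPs and 9.71, 9.49 and 9.50 in pre-CD8 DCs. Neither overlapped between populations, and both were called at the second step, Pola1 (-0.96, SE 0.13, adjusted p = 0.00335) and Pola2 (-0.73, SE 0.12, adjusted p = 0.00817). At the first step they had -0.27 and -0.41 without a call (adjusted p = 0.211 and 0.0547), and Pola2 passed there once arrays were blocked by replicate number (adjusted p = 0.0214). Of the primase subunits, Prim2 was lower at each step (-0.34 and -0.61) and Prim1 over the span. The first call of Prim2 was lost under 10 of 19 alternatives, the block by replicate number among them (adjusted p = 0.0597).

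Pole, the catalytic subunit of the leading-strand polymerase epsilon, was at 10.63, 10.64 and 10.60 in Zbtb46- CDPs, 10.79, 10.47 and 10.42 in Zbtb46+ CDPs and 9.69, 9.55 and 9.74 in pre-CD8 DCs. The CDP groups overlapped (first difference -0.06, SE 0.10, adjusted p = 0.703) and pre-CD8 DCs were lower (-0.90, SE 0.10, adjusted p = 0.00112). Its partner Pole2 had 8.52, 8.75 and 8.63 in Zbtb46- CDPs, 7.76, 8.33 and 8.22 in Zbtb46+ CDPs and 7.54, 7.81 and 7.66 in pre-CD8 DCs. Its CDP groups did not overlap, with a call at the first step (-0.53, SE 0.15, adjusted p = 0.0415), while pre-CD8 and Zbtb46+ arrays overlapped (-0.43, adjusted p = 0.127). The first call was lost under 10 of 19 alternatives, and the second step was called under 4, among them the run without the 2 arrays low in Xist (-0.61, adjusted p = 0.00509). The polymerase delta genes Pold1 and Pold3 were lower at the second step, by 0.46 and 0.47, and Pold1 had 0.05 at the first. Pold2 fell over the span only, by 0.50, with uncalled differences of -0.27 and -0.23 at the steps.

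The sliding clamp gene passed none of the comparisons with all 9 arrays. Pcna stood at 12.65, 12.81 and 12.83 in Zbtb46- CDPs, 12.43, 12.88 and 12.88 in Zbtb46+ CDPs and 12.43, 12.52 and 12.38 in pre-CD8 DCs. The CDP groups overlapped, pre-CD8 DCs lay below Zbtb46- CDPs, and the span difference was -0.31 (SE 0.12, adjusted p = 0.144). Without the 2 arrays low in Xist it was called at the second step (-0.43, adjusted p = 0.00459) and over the span (-0.37, adjusted p = 0.00523). A second probe set for Pcna gave a span difference of -0.32, but it read almost the same signal on every array and is not a separate measure. The clamp loader genes Rfc1 to Rfc5 all fell over the span, by 0.41 to 0.78. Rfc5 passed the first step once arrays were blocked by replicate number (-0.32, adjusted p = 0.0352, against 0.224). Rfc2 had 10.68, 10.46 and 10.57 in Zbtb46- CDPs, 10.34, 10.18 and 10.35 in Zbtb46+ CDPs and 9.77, 9.90 and 9.75 in pre-CD8 DCs. No populations of Rfc2 overlapped, and it was called at the second step (-0.48, SE 0.085, adjusted p = 0.0109). Rfc3 had 10.01, 9.71 and 9.89 in Zbtb46- CDPs, 9.02, 9.41 and 9.43 in Zbtb46+ CDPs and 9.04, 9.22 and 9.0 in pre-CD8 DCs, with a call at the first (-0.59, SE 0.13, adjusted p = 0.0164) and overlap of pre-CD8 DCs with Zbtb46+ CDPs.

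Replication protein A coats unwound strands. Its largest subunit gene, Rpa1, was at 10.13, 10.03 and 10.07 in Zbtb46- CDPs, 9.62, 9.72 and 9.86 in Zbtb46+ CDPs and 9.41, 9.20 and 9.45 in pre-CD8 DCs. The populations of Rpa1 did not overlap, and it was lower at each step, by 0.34 and 0.38. These calls were lost under 13 and 12 of 19 alternatives (adjusted p = 0.107 at the first step without the 2 arrays low in Xist). Rpa2 read 9.78, 9.57 and 9.61 in Zbtb46- CDPs, 9.63, 9.12 and 9.25 in Zbtb46+ CDPs and 8.82, 8.89 and 8.86 in pre-CD8 DCs. It fell over the span (-0.80, SE 0.13, adjusted p = 0.00227) and overlapped between the CDP groups. Without the 2 arrays low in Xist it was lower at each step, by 0.41 (adjusted p = 0.00726) and 0.33 (adjusted p = 0.015). Rpa3 had a span difference of 0.00 (SE 0.21) and overlapped throughout.

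Lig1, which joins Okazaki fragments, had 10.96, 10.73 and 10.77 in Zbtb46- CDPs, 10.65, 10.60 and 10.74 in Zbtb46+ CDPs and 9.86, 9.87 and 9.87 in pre-CD8 DCs. The CDP groups overlapped, and pre-CD8 DCs were lower than Zbtb46+ CDPs by 0.80 (adjusted p = 0.000497), or 1.74-fold. Fen1, which trims the flaps before joining, had 10.18, 9.85 and 10.01 in Zbtb46- CDPs, 9.49, 9.45 and 9.74 in Zbtb46+ CDPs and 9.37, 9.21 and 9.27 in pre-CD8 DCs. The populations of Fen1 did not overlap. Its call lay at the first step (-0.45, SE 0.11, adjusted p = 0.0231; adjusted p = 0.0728 without the 2 arrays low in Xist), with -0.28 at the second.

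In the main fit none of the 4 deoxynucleotide supply genes passed as lower between the CDP groups, and 3 of 4 did in pre-CD8 DCs against Zbtb46+ CDPs. Rrm2, the small subunit of ribonucleotide reductase that is made in S phase, was at 10.61, 10.29 and 10.41 in Zbtb46- CDPs, 10.84, 10.76 and 10.87 in Zbtb46+ CDPs and 10.19, 10.10 and 10.21 in pre-CD8 DCs. Every Zbtb46+ array lay above both other populations: Rrm2 rose by 0.38 in Zbtb46+ over Zbtb46- CDPs (SE 0.091, adjusted p = 0.0219) and was lower in pre-CD8 than in Zbtb46+ by 0.66 (adjusted p = 0.00335). The rise lost its call under 5 of 19 alternatives, among them the fit of the CDP groups alone and the runs without Zbtb46- replicate 2, Zbtb46- replicate 3 or Zbtb46+ replicate 3. The large subunit gene Rrm1 had 10.44, 10.44 and 10.53 in Zbtb46- CDPs, 9.40, 10.13 and 10.35 in Zbtb46+ CDPs and 9.65, 9.53 and 9.63 in pre-CD8 DCs, with a call over the span alone (-0.87, SE 0.20, adjusted p = 0.0166) and Zbtb46+ replicate 1 below the pre-CD8 arrays. The first difference of Rrm1, -0.51 (SE 0.20, adjusted p = 0.129), was the largest of the 4 genes, and its CDP groups did not overlap. It was called lower at that step with array weights and without Zbtb46+ replicate 3. Without the 2 arrays low in Xist the first difference was -0.25 (adjusted p = 0.095). The second step of Rrm1 was called in that setting (-0.64, adjusted p = 0.00288, against -0.36). Thymidylate synthase (Tyms) read 10.37, 10.25 and 10.34 in Zbtb46- CDPs, 10.41, 10.52 and 10.56 in Zbtb46+ CDPs and 9.83, 10.12 and 9.93 in pre-CD8 DCs. Zbtb46+ arrays lay above the Zbtb46- ones without a call (0.18, adjusted p = 0.224), and pre-CD8 DCs were lower than Zbtb46+ CDPs by 0.54 (adjusted p = 0.00856). Thymidine kinase (Tk1) had first and second differences of 0.08 (adjusted p = 0.583) and -0.54 (adjusted p = 0.00856), and a second, dimmer probe set gave 0.19 and -0.85.

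Esco2, which acetylates cohesin during S phase, was the only 1 of the 49 genes to rise over the span. It had 8.91, 8.86 and 8.94 in Zbtb46- CDPs, 9.72, 9.75 and 9.82 in Zbtb46+ CDPs and 9.13, 9.29 and 9.35 in pre-CD8 DCs. No populations overlapped, and Zbtb46+ CDPs were highest: Esco2 rose 1.81-fold between the CDP groups (0.86, SE 0.076, adjusted p = 0.000189), was lower in pre-CD8 than in Zbtb46+ by 0.51 (adjusted p = 0.00481), and stayed above Zbtb46- CDPs in pre-CD8 DCs (0.35, SE 0.076, adjusted p = 0.012). Dtl, the ubiquitin ligase receptor that removes Cdt1 on loaded clamp, had 10.93, 10.96 and 10.81 in Zbtb46- CDPs, 10.27, 10.37 and 10.31 in Zbtb46+ CDPs and 9.61, 9.53 and 9.53 in pre-CD8 DCs. Without overlap of populations, it fell at each step, by 0.59 (adjusted p = 0.00077) and 0.76 (adjusted p = 0.000332). Chaf1b, of the CAF-1 complex that deposits histones behind the fork, had 10.09, 10.09 and 9.96 in Zbtb46- CDPs, 9.26, 9.37 and 9.45 in Zbtb46+ CDPs and 8.62, 8.73 and 8.47 in pre-CD8 DCs. Chaf1b too was separate in all populations, and its falls at the steps were 0.69 and 0.76. Its partner Chaf1a had 0.03 at the first step and -0.47 at the second (adjusted p = 0.0281).

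Whether a gene changed by different amounts at the 2 steps was tested as the second difference minus the first. Of the 49 genes 7 had a negative value past the threshold (1.36% of all genes did) and 1 a positive value (6.26%). The negative ones were Esco2 (-1.37, SE 0.13, adjusted p = 0.00152), Rrm2 (-1.04, SE 0.16, adjusted p = 0.00669), Pole (-0.83, SE 0.18, adjusted p = 0.0249), Tyms (-0.72, SE 0.16, adjusted p = 0.0275), Lig1 (-0.64, SE 0.14, adjusted p = 0.0249), Tk1 (-0.62, SE 0.16, adjusted p = 0.0469) and Cdc45 (-0.57, SE 0.15, adjusted p = 0.0486). The positive one was Orc4 (0.59, SE 0.14, adjusted p = 0.0411), which fell short after quantile normalization (0.31, adjusted p = 0.354). Mcm2, Mcm5 and Pold1 gained a negative call after that normalization, where 3.08% of all genes had one. With arrays blocked by replicate number, Tk1 (adjusted p = 0.0521) and Orc4 (adjusted p = 0.0632) lost this call and Pold1 gained one. Esco2 and Rrm2 kept the call on the difference between the steps whichever array was left out, while the other 6 each lost it in at least 1 such run. Over all 18 alternatives Orc4 lost it in 12, Cdc45 and Tk1 in 11 each, Lig1 and Tyms in 7 each, and Pole in 6. Without the 2 arrays low in Xist the 7 genes were all called, and Pola1, Prim1, Pold1 and Pcna joined them on the negative side, while Orc3 (0.58, adjusted p = 0.0309) took the place of Orc4 (0.54, adjusted p = 0.0605) on the positive side. In that setting 7.54% of all genes had a negative call, and 2463 of all 19938 had a positive one.

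**Figure D3:**
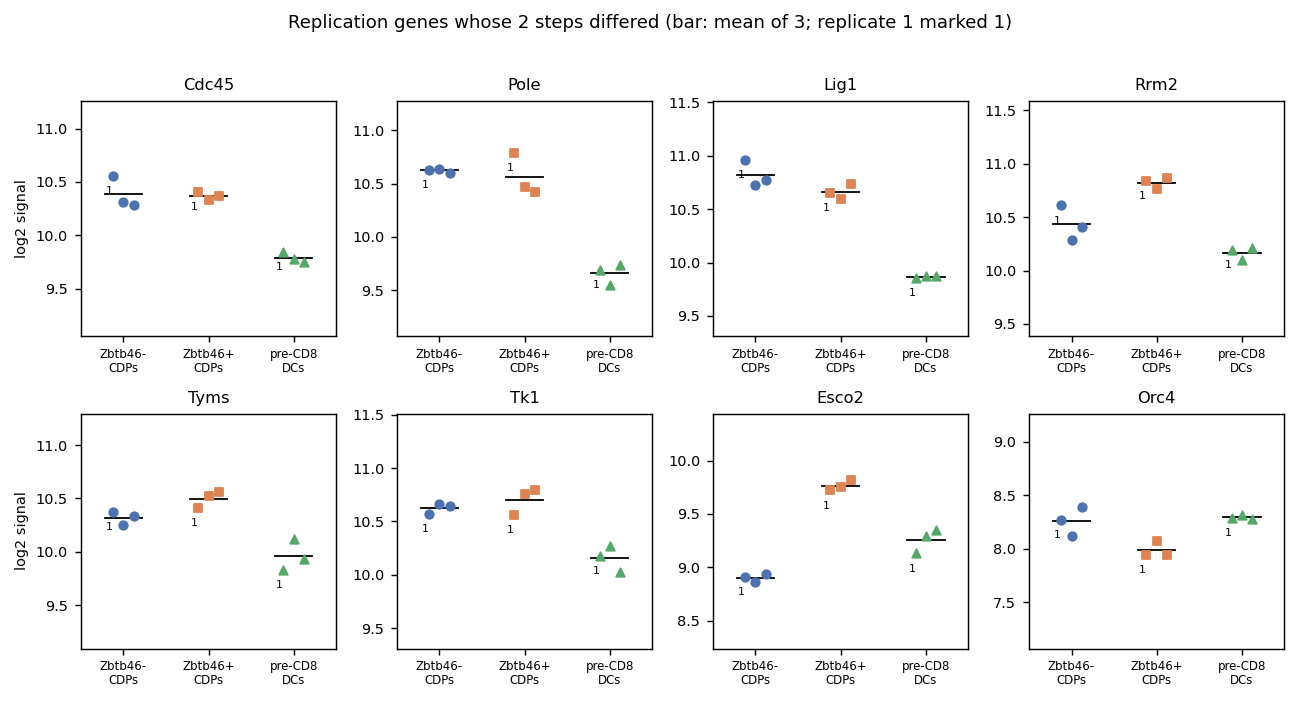
Log2 signal (y axis) on each of the 9 arrays, by population, of the 8 replication genes whose difference between the steps passed the threshold, with a bar at the mean of 3 arrays; every panel spans the same log2 range. Rrm2 and Esco2 are highest in Zbtb46+ CDPs, Orc4 is lowest there, and Cdc45, Pole, Lig1, Tyms and Tk1 are lowest in pre-CD8 DCs. Of these 8 genes, only Rrm2 and Esco2 kept the call whichever array was left out.

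A further list held 58 genes that act beside this machinery, of which 56 were measured: helicase kinases, checkpoint, histone supply, nucleotide and S phase cyclin genes. Between the CDP groups 11 were lower and 6 higher, between pre-CD8 and Zbtb46+ cells 15 lower and 1 higher, and over the span 26 lower and 3 higher. As shares these were 19.6% lower and 10.7% higher, 26.8% and 1.79%, and 46.4% and 5.36%, against 10.6% and 3.85%, 1.86% and 4.76%, and 9.23% and 6.43% of all genes, so the shares higher at the second step and over the span were no larger than over all genes. Cdca7, a chromatin remodelling cofactor, fell by 1.16, 0.95 and 2.11 at the first step, the second and over the span. The one-carbon enzyme genes Shmt1 and Mthfd1 fell by 1.13 and 0.99 at the first step, and the checkpoint kinase gene Chek1 by 0.88 at the second. Ccne1 encodes cyclin E1, which drives entry into S phase; it rose by 0.79 in Zbtb46+ CDPs and was lower by 0.96 in pre-CD8 DCs, and the histone chaperone gene Asf1b rose by 0.75 at the first step. Samhd1, which breaks deoxynucleotides down, rose at each step (0.75 and 0.52), and over the span so did the nuclease gene Dna2 (0.96) and the cyclin gene Ccna2 (0.27).

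Few mitosis genes were lower in the later populations. Of 29 measured, 7 were higher and 0 lower in Zbtb46+ than in Zbtb46- CDPs, 0 were called between pre-CD8 DCs and Zbtb46+ CDPs (6 at an unadjusted p under 0.05), and 7 were higher and 1, Ect2, lower over the span. The share higher was 24.1% at the first step and 24.1% over the span, against 3.85% and 6.43% of all genes, and the shares lower, 0% and 3.45%, stood against 10.6% and 9.23%. At the second step 4.76% of all genes were higher and 1.86% lower. An unadjusted p under 0.05 was reached there by 3798 of all 19938 genes, so the 6 of 29 mitosis genes stood near the share over all genes. Their medians were 0.24, -0.11 and 0.19, against -0.32, -0.48 and -0.76 for the 49 replication genes. Mki67, a marker of cycling cells, was at 12.01, 12.01 and 12.05 in Zbtb46- CDPs, 12.64, 12.71 and 12.60 in Zbtb46+ CDPs and 12.47, 12.65 and 12.50 in pre-CD8 DCs. It rose by 0.63 at the first step and by 0.52 over the span, and Nusap1 rose by 0.73 and 0.72. Kif23 rose by 0.58 at the first step, and the ubiquitin-conjugating enzyme gene Ube2c rose by 0.61 over the span. Without the 2 arrays low in Xist, a setting added for these lists after seeing the data, 15 mitosis genes were higher at the first step, 2 higher and 5 lower at the second, and 12 higher and 0 lower over the span, and 29 of the other 56 replication genes were lower at the second. In that setting 1737, 2496 and 1875 of all 19938 genes were higher at the first step, the second and over the span, and 2758, 1570 and 2146 were lower. The means per array of the 6 Mcm2-7 genes were 11.19, 11.05 and 11.09 in Zbtb46- CDPs, 10.60, 10.54 and 10.59 in Zbtb46+ CDPs and 9.94, 9.79 and 9.78 in pre-CD8 DCs, whereas the mitosis list had 10.06, 9.90 and 9.97 in Zbtb46- CDPs, 10.08, 10.30 and 10.37 in Zbtb46+ CDPs and 10.19, 10.10 and 10.25 in pre-CD8 DCs. The difference between the lists was not tested.

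**Figure D4:**
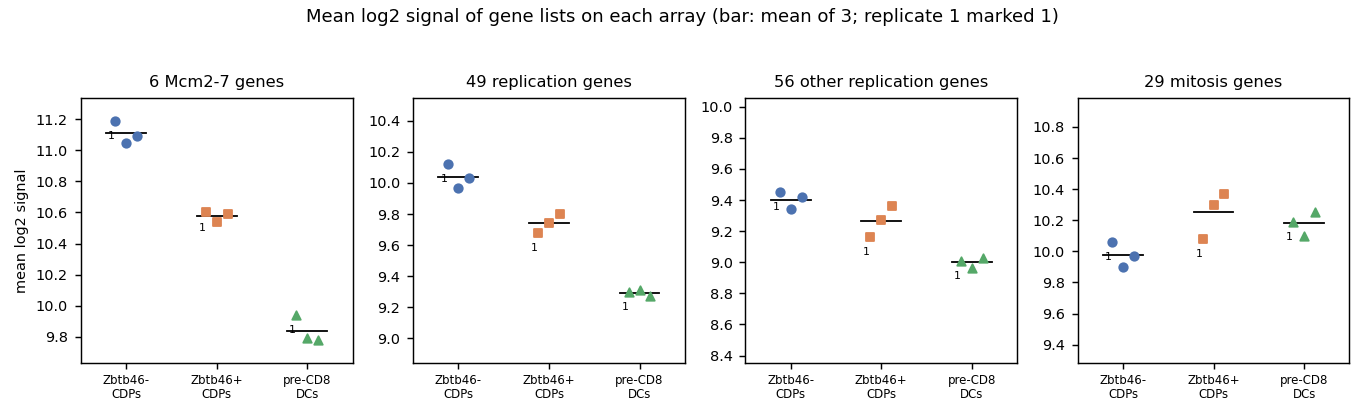
Mean log2 signal (y axis) of 4 gene lists on each of the 9 arrays by population, with a bar at the mean of 3 arrays; every panel spans the same log2 range. The Mcm2-7 list and the list of all 49 genes step down through the populations without overlap, while the mitosis list lies higher in Zbtb46+ CDPs and pre-CD8 DCs than in Zbtb46- CDPs.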

How the data were processed

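RNA from the 3 sorted populations was hybridised to 9 Affymetrix arrays, 3 per population, after amplification with the WT Pico kit, per the labels' protocols. Amplification from picogram amounts can add spread between arrays. The deposited values are linear signal intensity per probe set, made with RMA in Affymetrix Expression Console per the submitters' processing notes; versions are not given in the sources used here, and no scanner files were used. Array medians of this intensity lay between 110.2 and 118.0; precision is limited by having 3 arrays a population. The log2 of each intensity was taken. Of 28853 probe sets, 21789 carried 1 symbol, 1621 several and 5443 none in the platform annotation; for the 999 genes with several such probe sets, the one with the highest mean was used, and symbols were checked against RefSeq. The resulting 19938 genes were fitted in limma 3.58.1 (R 4.3.3) with 1 mean per population, and p-values were adjusted by Benjamini-Hochberg over all genes with a threshold of 0.05. The first step is Zbtb46+ CDPs minus Zbtb46- CDPs, the second pre-CD8 DCs minus Zbtb46+ CDPs, and the difference between the steps is the second minus the first. The fit was tested on simulated data.

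All 49 genes may be named. Values on every array are given for the gene with the largest difference of its sub-complex in a comparison and for a fixed set with roles throughout the pathway; of the other lists, the 3 genes with the largest called rise and fall in a comparison are named. The members and lists were chosen with earlier results of these data known. The alternatives were dropping the 30% dimmest genes, averaging a gene's probe sets, 2 other scalings, an intensity trend, array weights, 2 populations only, a stricter threshold, the replicate number as a block and leaving out arrays. Residuals of arrays with the same replicate number in the 2 CDP groups correlated at 0.51, 0.42 and 0.36. However, Zbtb46+ replicate 2 and Zbtb46- replicate 3 also correlated, at 0.38, and the other unequal numbers ran from -0.51 to 0.15. Between pre-CD8 DCs and Zbtb46+ CDPs the values of same-numbered arrays were 0.11, 0.07 and 0.17. The main fit took no arrays as pairs. Only the alternative with the replicate block did, and it blocked all 9 arrays, pre-CD8 DCs included. No slide or scan date was used.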

Additional observations from a re-analysis of the deposited data

How the results depend on the processing

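No called difference of the 49 genes changed direction under any alternative run. Counts of genes higher and lower were 2 and 19 at the first step, 0 and 26 at the second, 1 and 41 over the span, and 1 and 7 for the difference between the steps. At the first step the lower count was 10 after quantile normalization, 30 with array weights and 10 at an adjusted p under 0.01, and 11 to 25 with 1 array left out, 11 of them without Zbtb46- replicate 1 or replicate 3. The higher count was 1 with only the 2 CDP groups fitted and 1 at an adjusted p under 0.01, and 1 to 2 with 1 array left out; the lower count in the fit of 2 groups was 13. At the second step the higher count was 1 after median scaling, which was Orc4, and 0 to 1 with 1 array left out. The lower count there was 22 to 33 with 1 array left out, 20 at an adjusted p under 0.01, 34 with array weights and 35 without the 2 arrays low in Xist. Over the span the higher count was 0 at an adjusted p under 0.01 and 0 to 1 with 1 array left out (0 without pre-CD8 replicate 3), and the lower count was 35 to 42 with 1 array left out, 33 at an adjusted p under 0.01 and 46 with array weights.

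For the difference between the steps the higher count was 0 after quantile normalization, with an intensity trend, at an adjusted p under 0.01 and with the replicate block, 3 with array weights, and 0 to 2 with 1 array left out. With array weights 2290 of all 19938 genes were higher, against 1249 in the main fit. The lower count for this difference was 10 after quantile normalization (3.08% of all genes), 2 at an adjusted p under 0.01 (0.336%) and 11 without the 2 arrays low in Xist (7.54%). It was 2 to 9 with 1 array left out (0.627% to 6.35%), against 7 (1.36%) in the main fit. It was 2 without Zbtb46- replicate 3, Zbtb46+ replicate 2 or pre-CD8 replicate 1, 3 without Zbtb46+ or pre-CD8 replicate 3, and 4 without replicate 2 of Zbtb46- CDPs or pre-CD8 DCs. A fit of 2 groups could not be made for it. With the replicate block the counts were 2 and 20, 0 and 30, 1 and 40, and 0 and 7 for the first step, the second, the span and the difference between the steps; the second step gained Cdt1, Pole2, Rfc5 and Rpa2, the span lost Orc5, and the difference between the steps lost Orc4 and Tk1 and gained Pold1. Quantile normalization gave 1216 genes higher and 1572 lower over all genes at the first step, against 768 and 2105 without it, and 749 higher and 654 lower at the second, against 949 and 370. Over all alternatives, 5.19% to 18.3% of all genes were lower at the first step, 0.848% to 7.87% at the second and 5.2% to 18.7% over the span. For the difference between the steps the share lower ran from 0.336% to 7.54%. The cause of these shifts was not tested.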

Other observations

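3 of the 49 genes had a second probe set with the same symbol alone, a comparison added after seeing the data. The dimmer probe set of Tk1 had 9.43, 9.70 and 9.67 in Zbtb46- CDPs, 10.03, 9.61 and 9.73 in Zbtb46+ CDPs and 9.11, 8.91 and 8.81 in pre-CD8 DCs, and its difference of -0.85 between pre-CD8 DCs and Zbtb46+ CDPs compares with -0.54 for the brighter set. The second probe set of Pcna gave -0.03, -0.30 and -0.32 at the first step, the second and over the span, against -0.03, -0.29 and -0.31 for the set used. These 2 sets of Pcna lay close together on every array (12.38 and 12.43 in pre-CD8 replicate 1), so they are not separate measures. The dimmer probe set of Rpa3 gave -0.15, 0.18 and 0.02 at the first step, the second and over the span, against -0.17, 0.17 and 0.00.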
